A study of Mus musculus with 18 samples.

Results

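The delayed answer of wild-type mouse embryonic fibroblasts to transforming growth factor β1 (TGF-β1) was read from 6 of the 18 Affymetrix arrays of the series. The arrays were taken by their titles: 3 hold untreated wild-type cultures and 3 hold wild-type cultures that had received 12.5 ng/ml TGF-β1 for 10 h. Each group came from 3 embryos, numbered 1 to 3, with 1 array per embryo and no pooling named in the labels. The cells were primary fibroblasts, grown in DMEM with 10% FCS from minced, trypsin-digested tissue of 14-day embryos after removal of head and liver, so they are a mixed connective-tissue population and not a line. They carried no transgene or deletion per the labels. Before treatment all cultures had stood 4 to 6 h in DMEM with 1% AlbuMAX II, an albumin supplement, and a mix of insulin, transferrin and selenium. This arm of the study asked for the delayed response to the growth factor. Untreated cells of the same 10 h were not analysed here, so TGF-β1 and the hours in this medium cannot be told apart in any value of this comparison. The other 12 arrays, wild type after 1 h and 3 groups labelled NFI-C knock-out, served for the common estimate of spread and for the few comparisons named as such.

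TGF-β1 binds a pair of serine/threonine kinase receptors, which phosphorylate SMAD2 and SMAD3. These join SMAD4, enter the nucleus and act on genes together with other factors, and among their targets are inhibitors that damp the pathway. In fibroblasts the factor is known for raising matrix and contractile genes, a state called the myofibroblast, and in many cell types for slowing the cell cycle. Hours after the first contact, changes can also be indirect, through growth factors, cytokines and transcription factors that were induced first.

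Values are log2 levels as the authors deposited them. The submitters' processing notes name RMA, which corrects background, gives all arrays the same distribution and joins the probes of a set to 1 value. A difference of 1 is therefore 2-fold. Each gene was read by its brightest probe set, and 13679 genes that lay above the 40th percentile of an array on at least 3 of the 18 arrays were tested with limma, 10 h minus untreated. A gene "passed", "rose" or "fell" when its Benjamini-Hochberg adjusted p was under 0.05. Differences are given with their standard error and n is 3 arrays a group, a number that limits the precision: for the median gene the 95% confidence interval reached 0.27 to each side. Levels of different probe sets are not compared with each other. The 40th percentile lay at 4.16 to 4.25 on the arrays, and the file gives no detection calls. For 11 of the genes named here all 3 arrays of a group lay at or under their own array's 40th percentile: Abcb1a, Aldh1a3, Il6, Lce1f, Olfm2 and Thbs4 in untreated cells and Cacna1h, Itgb8, Lrrn3, Map2 and Rarb at 10 h. The dimmer level of these genes is only a bound, so their change is given as at least the difference from that percentile, beside the adjusted p of the fit on the values as deposited.

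The 3 untreated arrays correlated with each other at 0.989 to 0.994, the 3 arrays at 10 h at 0.988 to 0.994, and pairs across the groups at 0.969 to 0.986. Per the labels the same number marks the same embryo, but only number 1 showed it. The deviations from the group means correlated at 0.49 between the arrays of number 1, at -0.06 for number 2 and at -0.20 for number 3, whereas untreated array 2 and 10 h array 3 gave 0.44 and untreated array 3 and 10 h array 2 gave 0.38. The groups were therefore compared without pairing, and the pairing by the labels is given where it changes a call. The 10 h array 2 lay farthest from its group, with a root mean square deviation of 0.252 against 0.156 to 0.208 on the other 5. For the actin control, the log2 signal at the 3' end less that at the 5' end, a measure of RNA integrity, was 0.19 to 0.33 in untreated and 0.11 to 0.20 in treated arrays.

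The cells were checked against fibroblast markers. The collagen gene Col1a1 read 14.03, 13.86 and 13.77 in the untreated and 13.70, 13.94 and 13.73 in the treated arrays, and vimentin (Vim) 13.70, 13.91 and 13.78 and 13.73, 13.88 and 13.79, values near the highest on any array (14.47). Whether probes this bright were saturated was not tested. Of 16 fibroblast markers 1 rose and 6 fell, and their mean level was 11.27 to 11.45 in untreated and 10.73 to 10.84 in treated arrays. Macrophage markers were present too. The 20 macrophage and leukocyte markers had a mean level of 10.10, 8.58 and 8.44 in untreated arrays 1 to 3 and 9.78, 7.86 and 8.49 at 10 h, so array 1 held more of that signal in both groups. Of these markers 0 rose (0 at an unadjusted p under 0.05) and 1 fell, the mannose receptor gene Mrc1 at -2.15 ± 0.79, while the receptor gene Csf1r was at 0.08 ± 0.70 and the complement gene C1qa at 0.06 ± 0.70. In bulk RNA, fewer cells of a type and less RNA per cell cannot be told apart. Of the endothelial markers Pecam1, Cdh5, Tek, Tie1 and Vwf were too dim to be tested, of the muscle markers Myod1, Myog, Myf5 and Pax7, and of the epithelial ones Cdh1 and Krt14. Other members were bright enough: 9 of 14 endothelial, 14 of 26 muscle and 17 of 24 epithelial markers were tested. Absence of these cell types is therefore not shown. Of the 9 endothelial markers 1 rose and 0 fell (0 at an unadjusted p under 0.05). The endothelial counts of risen and fallen genes were 2 and 0 without 10 h array 1 or with embryo as a block. The fibroblast marker counts of risen and fallen genes were 2 and 6 with embryo as a block. The macrophage marker counts of risen and fallen genes were 0 and 0 without untreated array 1, untreated array 3, 10 h array 2 or 10 h array 3 and 0 and 2 with embryo as a block. Mrc1 lost its call without untreated array 1 (0.199), untreated array 3 (0.0637), 10 h array 2 (0.177) or 10 h array 3 (0.0959), limma adjusted p in brackets. Mrc1 (0.0628) did not pass in a fit of the 6 arrays alone (limma adjusted p in brackets).

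By 10 h much of the measured transcriptome had moved. Of the 13679 genes 4614 passed, which is 33.7%, with 2041 higher (14.9%) and 2573 lower (18.8%). At least 2-fold changes were seen in 310 higher genes (2.27%) and 523 lower ones (3.82%). Of these 833 genes 778 also passed with each of the 6 arrays left out in turn, and of all 4614 that passed 2941 did. The median difference over all tested genes was 0.01, and in 44.3% of them the 3 values of one group all lay above the 3 of the other. These shares are the background for the gene groups that follow, 53 in number, whose members were looked up by name.

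**Figure D1:**
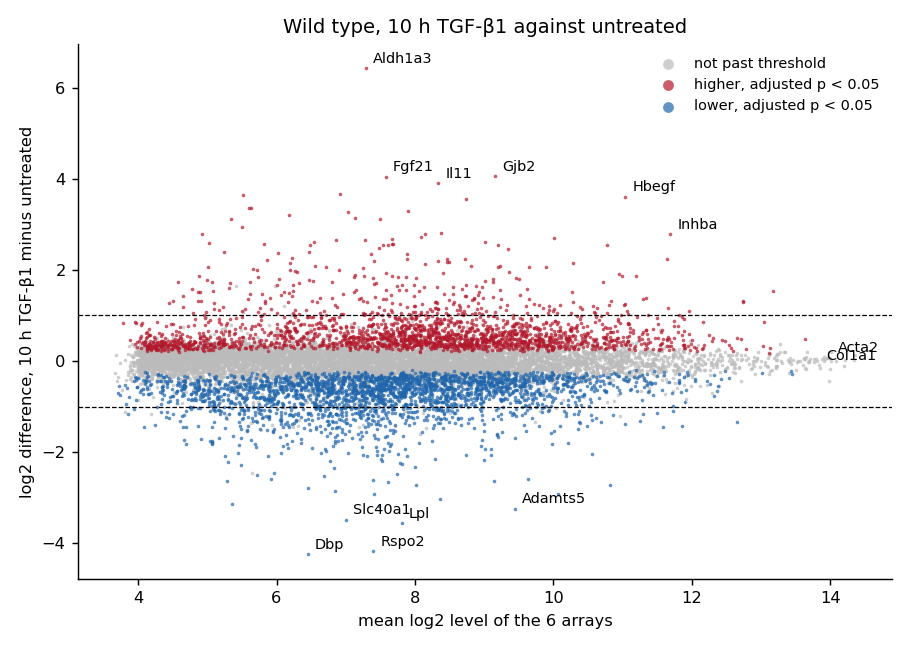
Difference between 10 h of TGF-β1 and untreated wild-type cells (log2, vertical axis) against the mean log2 level of the 6 arrays (horizontal axis) for the 13679 tested genes, with genes past the threshold in colour. The 310 genes raised and 523 lowered at least 2-fold lie outside the dashed lines, Aldh1a3 highest and Dbp lowest.

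The largest rise was that of Aldh1a3, an enzyme that makes retinoic acid. It read 4.18, 4.05 and 4.01 in untreated arrays 1, 2 and 3, at or under the 40th percentile of those arrays, and 10.67, 10.35 and 10.48 at 10 h, a rise of at least 6.32 or 79.7-fold (limma adjusted p = 2.8e-12). Its other 2 probe sets rose as well, by 5.25 ± 0.21 and 3.80 ± 0.22. The gap junction gene Gjb2 went from 7.26, 6.84 and 7.28 to 11.12, 11.72 and 10.71, and Fgf21, the gene of a hormone of the fibroblast growth factor family, from 5.64, 5.49 and 5.53 to 9.54, 9.89 and 9.38. In each of these genes all treated arrays lay above all untreated ones by more than 3 units. The cytokine gene Il11 read 6.39, 6.26 and 6.51 and then 9.92, 11.09 and 9.83, and the natriuretic peptide gene Nppb 5.31, 5.21 and 4.71 and then 9.49, 8.09 and 8.64. The largest fall was that of Dbp, a transcription factor under control of the circadian clock, from 8.66, 8.36 and 8.70 to 4.32, 4.31 and 4.35, or 19.0-fold lower (limma adjusted p = 2.9e-13). Its 10 h values lay just above the 40th percentile of the arrays (4.16 to 4.25), so the size of this fall is uncertain. The Wnt agonist gene Rspo2 went from 9.79, 8.92 and 9.76 to 4.80, 5.98 and 5.14, and the lipase gene Lpl from 10.41, 9.01 and 9.34 to 6.84, 5.45 and 5.79. Array 1 was the highest of its group for Lpl at both times. The groups stayed apart, which was a condition for a place among the largest changes. A dim second Rspo2 probe set, at means of 4.90 and 5.18, rose by 0.27 ± 0.09, the opposite direction.

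**Figure D2:**
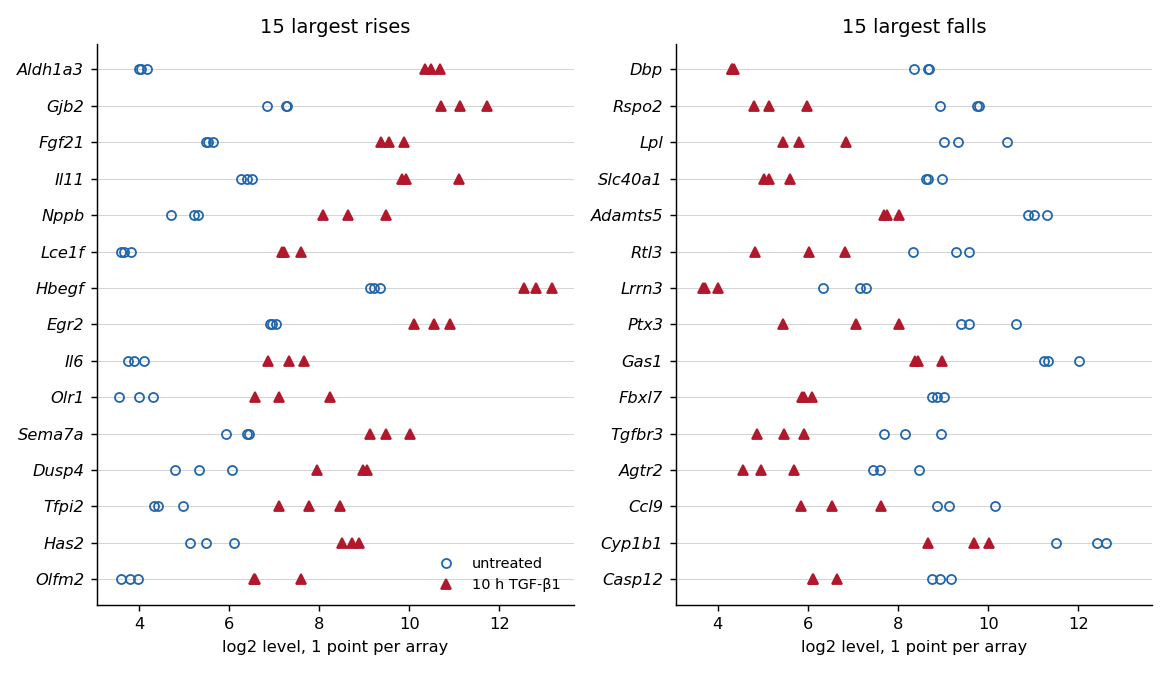
Log2 level of the 15 most raised and the 15 most lowered genes in each of the 3 untreated (circles) and 3 treated (triangles) wild-type arrays. The groups do not overlap for any of the 30 genes, which was a condition of their choice.

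Within the TGF-β pathway itself the ligand gene rose and part of the receptors fell. Tgfb1 read 8.46, 8.50 and 7.58 in untreated and 10.14, 10.46 and 10.23 in treated arrays, 4.27-fold higher at 2.09 ± 0.19 (limma adjusted p = 1.0e-06). The groups were far apart. Tgfb3 rose by 0.60 ± 0.13, Ltbp2, a latent TGF-β binding protein gene, by 1.01 ± 0.24, and Furin, the convertase that cleaves the TGF-β precursor, by 0.71 ± 0.16, whereas Tgfb2 was at -0.44 ± 0.20. In all 4 of 10 ligand and latency genes rose and 0 fell (1 at an unadjusted p under 0.05). Among the receptors, Tgfbr3, the co-receptor betaglycan, went from 7.69, 8.16 and 8.96 to 4.86, 5.47 and 5.91, a change of -2.86 ± 0.32 (7.24-fold lower, limma adjusted p = 6.1e-06). The type II receptor gene Tgfbr2 fell by 0.63 ± 0.13 and the decoy receptor gene Bambi by 0.54 ± 0.12, while the type I receptor gene Tgfbr1 rose by 0.91 ± 0.17. The accessory receptor Eng was at 0.15 ± 0.10 and did not pass. The ligand and latency counts of risen and fallen genes were 4 and 1 without 10 h array 1 and 5 and 3 with embryo as a block. Tgfbr2 (0.464) did not pass with the mean of all probe sets of a gene (limma adjusted p in brackets). Tgfb2 (0.0295) passed with embryo as a block (limma adjusted p in brackets).

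Several inhibitors of the pathway stood higher at 10 h. Smad7, which blocks the type I receptor, read 7.06, 7.16 and 6.87 in untreated, 8.91, 8.92 and 8.89 at 1 h and 8.16, 8.38 and 8.38 at 10 h, so its level at 10 h lay between the other groups and was 1.28 ± 0.10 above untreated. Pmepa1, which binds SMAD2 and SMAD3, rose by 1.23 ± 0.16, the ubiquitin ligase genes Smurf1 and Smurf2 by 1.27 ± 0.11 and 0.83 ± 0.11, the SMAD corepressor gene Skil by 0.99 ± 0.14 and Ldlrad4 by 1.05 ± 0.09. Of the SMADs that carry the signal, Smad3 fell by 0.88 ± 0.09 (limma adjusted p = 4.6e-06), from 9.08, 9.18 and 9.23 to 8.11, 8.27 and 8.46. Smad2 was at -0.06 ± 0.16 and Smad4 at 0.02 ± 0.11, neither past the threshold. Of 18 SMAD genes and regulators 6 rose, 1 fell and 11 did not pass. The SMAD counts of risen and fallen genes were 6 and 2 without 10 h array 3 and 7 and 2 with embryo as a block. Smad3 (0.233) did not pass with the mean of all probe sets of a gene (limma adjusted p in brackets).

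Genes known to answer TGF-β directly were still raised after 10 h, 10 of 12 with 0 fallen (0 at an unadjusted p under 0.05) and a median of 1.34 against 0.01 over all genes. This list was made with earlier results of these data known and its direction is no independent evidence. The matricellular gene Ccn2 read 12.68, 12.23 and 12.30 and 13.92, 14.13 and 13.76, a rise of 1.53 ± 0.13, and its relative Ccn1 rose by 1.16 ± 0.16. The transcription factor genes Bhlhe40 (2.06 ± 0.29), Junb (1.87 ± 0.24), Snai1 (1.32 ± 0.17) and Klf10 (0.92 ± 0.14), the small GTPase gene Rasl11b (1.39 ± 0.19) and the Notch ligand gene Jag1 (1.26 ± 0.22) rose too. Rasl11b and Klf10 had been higher at 1 h, with 11.47, 11.64 and 11.52 and 9.77, 10.09 and 10.09 against 9.54, 9.79 and 9.70 and 9.06, 8.67 and 8.71 at 10 h. Tgfbi, named for its induction by TGF-β, was at 0.06 ± 0.11 from levels of 10.52, 10.58 and 10.79, and did not pass.

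The related activin branch showed a rise of ligand and inhibitors together. Inhba, the gene of the activin A subunit, read 10.49, 10.24 and 10.15 in untreated and 13.08, 13.19 and 12.96 in treated cells, 6.90-fold higher (limma adjusted p = 3.0e-10). The activin-binding inhibitors Fst (follistatin) and Fstl3 rose by 1.14 ± 0.17 and 1.62 ± 0.23. The activin receptor gene Acvr2a fell by 0.81 ± 0.11, and the type I receptor genes Acvr1 and Bmpr1b rose by 0.73 ± 0.12 and 0.76 ± 0.16. Of the Id genes, inhibitors of helix-loop-helix factors and targets of BMP signals, Id1 rose by 0.77 ± 0.22, Id4 fell by 0.90 ± 0.26, and Id2 at 0.27 ± 0.36 and Id3 at -0.42 ± 0.28 did not pass. The BMP ligand gene Bmp4 was at -0.32 ± 0.36 and the antagonist gene Grem1 at -0.51 ± 0.24. Of 27 genes of this group 6 rose, 2 fell and 19 did not pass, a share of 29.6% against the background of 33.7%. Id1 lost its call without untreated array 1 (0.0623), limma adjusted p in brackets. Grem1 (0.00926) passed with embryo as a block (limma adjusted p in brackets).

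**Figure D3:**
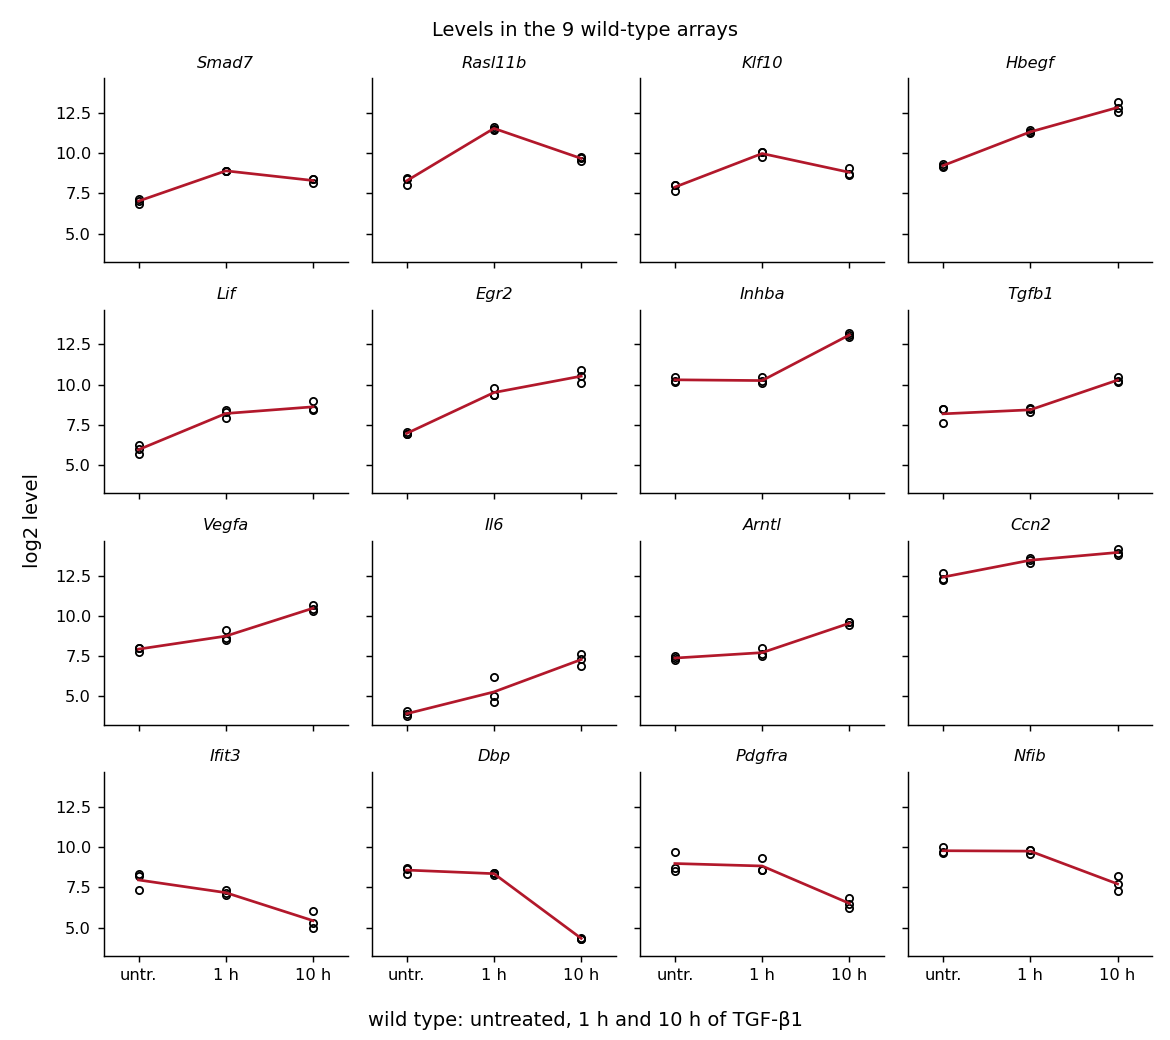
Log2 level of 16 genes in the 3 wild-type arrays each of untreated cells, 1 h and 10 h of TGF-β1 (points), with the group means joined by lines and the times evenly spaced. Smad7 peaks at 1 h, Inhba, Tgfb1 and Vegfa stand highest at 10 h, and Dbp, Pdgfra and Nfib stand lowest there.

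A set of secreted growth factors rose steeply. Of 47 growth factor and binding protein genes 16 rose, 12 of them at least 2-fold, 11 fell and 20 did not pass. The risen and fallen shares were 34.0% and 23.4%, against 14.9% and 18.8% of all genes. Hbegf, a ligand of the EGF receptor, read 9.21, 9.35 and 9.13 in untreated, 11.42, 11.30 and 11.26 at 1 h and 12.82, 13.16 and 12.54 at 10 h, a rise of 3.61 ± 0.13 (12.2-fold, limma adjusted p = 4.0e-11), and the related ligand Ereg rose by 2.03 ± 0.38. Fgf2 went from 3.77, 4.32 and 4.02 to 6.99, 7.45 and 6.49 and the angiogenic factor gene Vegfa from 8.02, 8.01 and 7.76 to 10.33, 10.67 and 10.43. The groups did not overlap in either gene, as in 4404 of the 4614 genes that passed. Of the untreated Fgf2 values, 3.77 and 4.02 lay under the 40th percentile of the arrays (4.16 to 4.25), so the size of its rise is uncertain. Of the platelet-derived growth factor genes, Pdgfa rose by 1.57 ± 0.16, Pdgfb by 1.79 ± 0.51 and Pdgfc by 1.37 ± 0.11. Csf1, which sustains macrophages, rose by 1.15 ± 0.23 and Fgf18 by 1.38 ± 0.22.

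Other ligands of fibroblasts fell. The stem cell factor gene Kitl went from 6.91, 6.74 and 7.43 to 4.99, 5.24 and 5.26 (-1.87 ± 0.30), Vegfd from 8.80, 8.21 and 8.65 to 7.09, 6.98 and 6.15 (-1.81 ± 0.23), and the epithelial mitogen gene Fgf7 from 7.86, 8.19 and 8.46 to 6.82, 7.08 and 6.42 (-1.39 ± 0.28). The groups did not overlap in any of the 3, as in most genes that passed. Angpt2 fell as well, by 1.33 ± 0.28. Igf1 at -1.35 ± 0.56 and Igf2 at 0.12 ± 0.33 did not pass, and the Igf1 groups overlapped, with 11.26, 9.66 and 10.31 against 9.87, 8.63 and 8.68. The growth factor counts of risen and fallen genes were 15 and 5 without untreated array 3. Igf1 (6.8e-04) passed with embryo as a block (limma adjusted p in brackets).

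Among the growth factor receptor genes more fell than rose, as over all genes. Pdgfra, the receptor of PDGF-AA, read 8.69, 8.54 and 9.70 in untreated and 6.22, 6.44 and 6.85 in treated cells, 5.57-fold lower at -2.48 ± 0.29 (limma adjusted p = 9.9e-06), and its 2 dimmer probe sets fell too, at -1.11 ± 0.26 and -0.68 ± 0.15. The second PDGF receptor gene, Pdgfrb, was at 0.28 ± 0.12. Fgfr2 fell by 1.92 ± 0.20, Met, the receptor of hepatocyte growth factor, by 1.71 ± 0.16 and Egfr by 0.76 ± 0.10, while Fgfr1 was at 0.29 ± 0.18. Flt1, a VEGF receptor gene, was the 1 member that rose at least 2-fold, at 1.69 ± 0.16. Of 38 receptor genes 5 rose, 10 fell and 23 did not pass. These were 13.2% risen and 26.3% fallen, against 14.9% and 18.8% of all genes. The receptor counts of risen and fallen genes were 2 and 9 without 10 h array 2 and 9 and 13 with embryo as a block. Pdgfrb (0.0413) passed with embryo as a block (limma adjusted p in brackets).

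In the interleukin-6 family 3 ligand genes rose and 3 receptor chain genes fell. Il6 went from 3.88, 4.11 and 3.76 to 7.65, 6.87 and 7.32, a rise of at least 3.10, and Lif, already at 8.26, 7.91 and 8.43 after 1 h, from 5.66, 5.99 and 6.21 to 8.39, 8.99 and 8.46, a rise of 2.66 ± 0.35. Il11 was 14.9-fold higher, with a rise of 3.90 ± 0.27 (limma adjusted p = 5.9e-08). The signal-transducing chain Il6st (gp130), used by all 3, read 11.49, 11.42 and 11.81 and 9.46, 9.57 and 9.55, and fell by 2.04 ± 0.15 (limma adjusted p = 9.8e-08). Lifr, the LIF receptor chain, fell by 2.34 ± 0.13 from 7.88, 7.91 and 8.19 to 5.62, 5.83 and 5.51, and the oncostatin M receptor gene Osmr by 0.61 ± 0.11. Among feedback inhibitors of cytokine receptors Socs2 rose by 2.37 ± 0.28, and Socs3 at -1.04 ± 0.52 did not pass. The group of 41 cytokine and acute inflammation genes counted 11 risen and 12 fallen, 56.1% in all. Also lower were Ptx3, a soluble pattern receptor of the pentraxin family (-3.02 ± 0.76), Il18 (-1.30 ± 0.24) and Il33 (-1.06 ± 0.30), and the scavenger receptor gene Olr1 (3.35 ± 0.34) and the osteoprotegerin gene Tnfrsf11b (2.34 ± 0.22) were higher.

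The 250 bases before the start of Il6 are shown because 5 of the 28 members of this group with a promoter in the RefSeq table held an AP-1 match there, TGANTCA on either strand, which is 17.9% against 6.87% of all promoters of that length and 4.63% of those of the tested genes. AP-1, a dimer of Fos and Jun proteins, is a factor that answers growth factors. The 5 genes were Il1rn, Il6, Lif, Olr1 and Tnfaip3, of which 4 rose and Il1rn fell. The match is in capitals (GRCm38.p6, chr5:30012864-30013113, plus strand), and the sequence is written 5′ to 3′ up to the base before the start. A match is a description of letters and not a bound site, and the elements searched here and in the promoters that follow were chosen after the values were seen. Among matrix proteases and inhibitors 4 of 26 members held an AP-1 match, 15.4%. Of these 4 genes 1 rose, and their median was 0.12. GGAATG, a TEAD site, was found in 2 of 8 TGF-β-responsive genes, 25.0% against 12.6% of all promoters. Tnfaip3 lost its call without untreated array 1 (0.052), untreated array 2 (0.0525), untreated array 3 (0.055), 10 h array 1 (0.0546) or 10 h array 2 (0.0622), limma adjusted p in brackets. Tnfaip3 (0.0722) did not pass with the mean of all probe sets of a gene (limma adjusted p in brackets).
Il6: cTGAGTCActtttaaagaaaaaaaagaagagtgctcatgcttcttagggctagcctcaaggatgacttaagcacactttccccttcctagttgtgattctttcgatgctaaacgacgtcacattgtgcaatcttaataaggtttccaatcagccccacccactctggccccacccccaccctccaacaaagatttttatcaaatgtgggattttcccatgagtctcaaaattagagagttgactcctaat

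Chemokine genes split, with 4 of 27 risen, 4 fallen and 19 not past the threshold, below the background share. Cx3cl1, a membrane-bound chemokine, went from 6.80, 6.52 and 6.84 to 9.66, 9.62 and 9.06 (2.73 ± 0.31), and Cxcl14 and Ccl17 rose by 1.54 ± 0.30 and 1.67 ± 0.19. Cxcl12, the stromal ligand of CXCR4, fell by 0.89 ± 0.24. Ccl9 fell by 2.72 ± 0.66, from 10.14, 9.13 and 8.86 to 7.61, 5.83 and 6.53, with array 1 the highest at both times, as for the macrophage markers above, whose part in this was not tested. Ccl2 was at 0.94 ± 0.82 and did not pass. Of the prostaglandin genes, Ptgs2, the inducible cyclooxygenase, rose by 2.55 ± 0.18 from 9.46, 9.64 and 9.39 to 12.34, 12.06 and 11.74, the receptor gene Ptgfr fell by 1.12 ± 0.26, and 3 of 14 rose and 4 fell. Of 11 complement genes 0 rose (1 at an unadjusted p under 0.05) and 1 fell; the latter was C1qtnf1, at -1.24 ± 0.19, which encodes a secreted C1q/TNF-related protein and not a complement component. The chemokine counts of risen and fallen genes were 4 and 1 without untreated array 1 and 4 and 2 without 10 h array 1 or 10 h array 3. The complement counts of risen and fallen genes were 0 and 2 without untreated array 2, 1 and 2 without 10 h array 1 and 1 and 3 with embryo as a block. Cxcl12 lost its call without untreated array 1 (0.0561), limma adjusted p in brackets. Cxcl12 (0.0668) and Ptgfr (0.0563) did not pass in a fit of the 6 arrays alone (limma adjusted p in brackets).

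Interferon-responsive genes lay lower. Of 42 interferon response and antigen processing genes 0 rose (1 at an unadjusted p under 0.05), 18 fell and 24 did not pass. The fallen share was 42.9% against 18.8% of all genes, and the median was -0.50. Ifit3, an antiviral effector gene, read 8.34, 7.33 and 8.20 in untreated, 7.16, 7.02 and 7.32 at 1 h and 6.00, 5.00 and 5.28 at 10 h (-2.53 ± 0.44, limma adjusted p = 4.0e-04), so that the 1 h arrays lay between the others. Ifit2 fell by 2.46 ± 0.21, the GTPase gene Gbp2 by 1.91 ± 0.50 and Iigp1 by 1.75 ± 0.40. The transcription factor gene Irf1 fell by 0.57 ± 0.20 and Irf9 by 0.78 ± 0.17. H2-K1 at -0.08 ± 0.31 and Psmb8 at 0.01 ± 0.37 did not pass. The mean level of the group was 7.39, 6.71 and 7.17 in untreated arrays 1 to 3 and 6.73, 6.40 and 6.25 at 10 h, so untreated array 2 stood near the treated arrays. The interferon group counts of risen and fallen genes were 1 and 9 without untreated array 1, 0 and 10 without untreated array 3, 0 and 11 without 10 h array 2 and 1 and 23 with embryo as a block. Irf1 lost its call without untreated array 1 (0.0591), untreated array 2 (0.0696), untreated array 3 (0.101), 10 h array 1 (0.101) or 10 h array 2 (0.103), limma adjusted p in brackets.

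The promoter of Ifit3 is shown for the interferon-stimulated response element (GAAA, any 2 bases, GAAA, on either strand), the site of STAT and IRF proteins. It was present in the 250 bases before the start of 12 of 32 members with a promoter in the table, 37.5% against 3.04% of all promoters, and 5 of the 12 fell. The median difference was -0.57 for the 12 and -0.52 for the others. The 2 matches are in capitals (GRCm38.p6, chr19:34583279-34583528, plus strand).
Ifit3: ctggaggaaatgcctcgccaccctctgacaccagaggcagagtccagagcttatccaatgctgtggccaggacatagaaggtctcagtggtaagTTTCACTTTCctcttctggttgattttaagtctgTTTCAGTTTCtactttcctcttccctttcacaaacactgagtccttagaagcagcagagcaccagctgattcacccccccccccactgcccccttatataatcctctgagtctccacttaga

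Extracellular matrix genes changed in some members, and no general rise was measured. Of 29 collagen chain genes 6 rose, 2 fell and 21 did not pass, 27.6% in all against 33.7% of all genes. Col8a2, a short-chain collagen, went from 5.96, 4.90 and 5.76 to 8.34, 8.09 and 8.13 (2.65 ± 0.39, limma adjusted p = 9.1e-05). The fibril regulator gene Col5a3 rose by 1.22 ± 0.25, Col27a1 by 0.74 ± 0.22 and Col7a1, the anchoring fibril chain, by 0.63 ± 0.18. The main fibrillar chains Col1a1 at -0.09 ± 0.11, Col1a2 at 0.00 ± 0.08 and Col3a1 at -0.16 ± 0.08 did not pass, with mean levels of 13.89 to 14.08 in untreated arrays. These levels lay near the highest on any array (14.47), where a rise may not be seen, and saturation was not tested. Of 23 collagen processing genes 8 rose (34.8% against 14.9% of all genes) and 1 fell (4.35% against 18.8%). Among the risen were the lysyl oxidase relatives Loxl1 and Loxl3, by 0.51 ± 0.12 and 0.77 ± 0.15. The prolyl hydroxylase genes P3h1 and P4ha3 rose by 0.43 ± 0.11 and 0.53 ± 0.18. Lox itself was at 0.20 ± 0.09. The collagen chain counts of risen and fallen genes were 5 and 1 without untreated array 1, 6 and 1 without untreated array 3 and 7 and 1 without 10 h array 3. The collagen processing counts of risen and fallen genes were 4 and 0 without untreated array 1, 5 and 0 without untreated array 3 or 10 h array 3, 6 and 0 without 10 h array 1 and 5 and 1 without 10 h array 2. Col27a1 lost its call without untreated array 2 (0.0554) or 10 h array 2 (0.0855), limma adjusted p in brackets. Col7a1 lost its call without 10 h array 3 (0.0591). P4ha3 lost its call without untreated array 2 (0.151) or 10 h array 2 (0.153). Col27a1 (0.0536), P3h1 (0.0557) and P4ha3 (0.0758) did not pass in a fit of the 6 arrays alone (limma adjusted p in brackets).

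Elastin showed the largest rise among the glycoprotein and elastic fibre genes. Eln read 7.21, 6.24 and 7.47 in untreated and 9.64, 10.33 and 9.35 in treated arrays (2.80 ± 0.70, limma adjusted p = 0.00599), and its second probe set rose by 1.88 ± 0.32. The tendon matrix gene Thbs4 rose by at least 1.70, tenascin C (Tnc) by 1.31 ± 0.10 and Ccn4 by 1.10 ± 0.12. The laminin chain gene Lama4 fell by 1.30 ± 0.24, from 8.43, 8.72 and 9.31 to 7.07, 7.73 and 7.75, and the basement membrane gene Nid1 by 0.63 ± 0.12. Fibronectin (Fn1) at 0.07 ± 0.07, periostin (Postn) at -0.20 ± 0.14 and Sparc at 0.07 ± 0.07 did not pass. The count was 8 risen, 7 fallen and 25 not past the threshold of 40.

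Hyaluronan synthesis and the proteoglycans moved in both directions. Has2, the main hyaluronan synthase of fibroblasts, went from 5.12, 6.10 and 5.48 to 8.87, 8.50 and 8.74, 8.78-fold higher (limma adjusted p = 9.8e-08), and its receptor gene Cd44 rose by 0.96 ± 0.09. Cspg4, the NG2 proteoglycan, rose by 2.60 ± 0.15, Prg4, lubricin, by 2.39 ± 0.48 and aggrecan (Acan) by 1.07 ± 0.27. The small leucine-rich proteoglycan gene Ogn fell by 1.43 ± 0.22 and the large proteoglycan gene Vcan by 1.04 ± 0.27, from 9.88, 10.73 and 10.46 to 8.92, 9.30 and 9.73. Decorin (Dcn) at -0.62 ± 0.30 and biglycan (Bgn) at 0.04 ± 0.07 did not pass. In all 7 of 30 rose and 9 fell. The proteoglycan counts of risen and fallen genes were 7 and 5 without untreated array 3. Vcan (0.0539) did not pass with the mean of all probe sets of a gene (limma adjusted p in brackets).

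Among matrix proteases and their inhibitors the changes ran both ways. Adamts5, the aggrecanase, read 11.30, 11.01 and 10.88 in untreated and 7.69, 8.01 and 7.76 in treated cells, 9.45-fold lower (limma adjusted p = 4.3e-10), and Adamts1 went from 10.35, 10.77 and 10.29 to 7.49, 7.79 and 8.20. Both fell in a clear step, while Adamts4, which also cleaves aggrecan, rose by 0.95 ± 0.18. The metalloproteinase inhibitor genes Timp1 and Timp3 rose by 1.29 ± 0.14 and 1.85 ± 0.16, and Timp2 was at -0.25 ± 0.10. Mmp9 and Adam12 rose by 1.85 ± 0.50 and 1.81 ± 0.15, and Mmp11 and the membrane-bound Mmp16 fell by 1.42 ± 0.22 and 1.44 ± 0.20. Mmp2 at 0.23 ± 0.09 did not pass. In the plasminogen system the urokinase receptor gene Plaur rose by 1.94 ± 0.16 and the tissue activator gene Plat fell by 0.82 ± 0.16. Of 44 genes 11 rose and 9 fell. With single arrays left out, 8 to 12 rose and 6 to 9 fell. Timp2 (0.028) passed with embryo as a block (limma adjusted p in brackets).

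Contractile genes rose more often than genes at large. Of 48 contractile and actin cytoskeleton genes 23 rose, which is 47.9% against 14.9% of all genes, 2 fell and 23 did not pass, and the median was 0.28. Calponin (Cnn1) read 10.87, 10.37 and 10.72 in untreated and 12.33, 12.40 and 11.37 in treated cells (1.38 ± 0.25, limma adjusted p = 5.0e-04). Acta1, the skeletal actin, rose by 2.07 ± 0.29, Ankrd1, a stretch-responsive gene, by 2.46 ± 0.29, Tagln2 by 1.15 ± 0.12, smoothelin (Smtn) by 1.04 ± 0.16 and SM22 (Tagln) by 0.48 ± 0.07. The serum response factor gene Srf, which drives many of these genes, rose by 0.67 ± 0.11. Acta2, the smooth muscle actin that defines myofibroblasts, was at 0.08 ± 0.07 with levels of 14.00, 13.97 and 13.92 and 14.15, 13.89 and 14.08, near the top of the scale, and its 2 dimmer probe sets were at 0.50 ± 0.44 and 0.39 ± 0.29 without passing. Myl9 at 0.12 ± 0.10 and Flna at 0.10 ± 0.10 did not pass either, and the adaptor gene Pdlim2 fell by 1.79 ± 0.19. The contractile counts of risen and fallen genes were 26 and 4 with embryo as a block.

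The promoter of Acta1 is shown for the CArG box, the site of SRF, which was found in the 250 bases before the start of 9 of 43 contractile genes with a promoter in the table. That is 20.9%, against 1.40% of all promoters and 1.19% of those of tested genes. Among early-response transcription factor genes 1 of 26 held the box, 3.85%. Of the 9 contractile genes, which were Acta1, Actc1, Cnn2, Fhl1, Fhl2, Ldb3, Lima1, Myl9 and Srf, 3 rose and 6 did not pass, and the medians with and without the box were 0.25 and 0.27. The match is in capitals (GRCm38.p6, chr8:123894776-123895025, minus strand). Fhl1 (0.0589) did not pass in a fit of the 6 arrays alone (limma adjusted p in brackets).
Acta1: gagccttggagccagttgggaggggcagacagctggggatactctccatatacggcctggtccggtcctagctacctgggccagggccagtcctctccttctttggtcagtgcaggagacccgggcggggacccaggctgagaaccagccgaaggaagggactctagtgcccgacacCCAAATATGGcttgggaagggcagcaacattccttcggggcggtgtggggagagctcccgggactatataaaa

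Adhesion genes followed with 12 risen and 2 fallen of 32. These were 37.5% and 6.25%, against 14.9% and 18.8% of all genes. Itga5, the fibronectin receptor chain, went from 8.32, 9.07 and 8.60 to 11.34, 11.40 and 11.35, 6.50-fold higher (limma adjusted p = 4.0e-09), and Itgb3 from 6.16, 6.81 and 5.97 to 8.61, 7.97 and 8.93. Itgb8, which binds latent TGF-β, fell by at least 0.66. Of the adaptor proteins of focal adhesions, paxillin (Pxn) rose by 0.53 ± 0.10, vinculin (Vcl) by 0.43 ± 0.09 and kindlin 2 (Fermt2) by 0.77 ± 0.13. The common chain Itgb1 at 0.14 ± 0.18 and Itgav at 0.00 ± 0.11 did not pass. The adhesion counts of risen and fallen genes were 10 and 1 without untreated array 1, untreated array 2 or untreated array 3 and 9 and 1 without 10 h array 2.

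Early-response transcription factors were still high at 10 h in part. Of 32 such genes 15 rose, 3 fell and 14 did not pass, with a median of 0.52. The risen share was 46.9% against 14.9% of all genes, and the fallen share 9.38% against 18.8%. Egr2 read 6.91, 6.95 and 7.04 in untreated, 9.77, 9.36 and 9.38 at 1 h and 10.54, 10.91 and 10.11 at 10 h, so it stood higher at the later time. Fosl1, a Fos family member, rose by 1.83 ± 0.17, Maff by 1.73 ± 0.21, Ier3 by 2.14 ± 0.32 and Myc, a driver of growth genes, by 1.04 ± 0.22. Fos at 0.19 ± 0.31, Jun at 0.48 ± 0.19 and Nr4a1 at 0.44 ± 0.33 did not pass, and Nr4a1 read 9.55, 8.82 and 9.53 at 1 h against 8.06, 8.64 and 7.51 at 10 h. Zfp36l1, which destabilizes messenger RNA, fell by 1.15 ± 0.14. The phosphatases that switch off MAP kinases rose in several cases, Dusp4 from 5.33, 6.06 and 4.81 to 8.98, 7.95 and 9.06 (3.26 ± 0.34), Dusp5 by 2.56 ± 0.15 and Dusp6 by 2.17 ± 0.28, and the inhibitor gene Spry2 fell by 1.12 ± 0.17. Of these 22 feedback genes 6 rose (27.3%) and 1 fell (4.55%). The feedback counts of risen and fallen genes were 7 and 2 without 10 h array 1 or with embryo as a block. Jun (0.0301) passed with embryo as a block (limma adjusted p in brackets).

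The nuclear factor I family, to which the gene deleted in the other arm of the study belongs, fell in 3 of its 4 members on the array. Nfib read 9.99, 9.69 and 9.63 in untreated and 7.68, 7.28 and 8.17 in treated cells (-2.06 ± 0.23, limma adjusted p = 5.7e-06). Nfia went from 8.40, 8.17 and 8.39 to 6.53, 6.85 and 6.44 (-1.71 ± 0.20) and Nfix from 11.87, 11.59 and 12.16 to 10.51, 11.06 and 10.55 (-1.17 ± 0.17). Nfic, at 10.51, 10.36 and 10.49 and 10.19, 10.25 and 10.25, did not pass (-0.22 ± 0.16), and neither did its 4 dimmer probe sets. Of the 6 dimmer Nfib probe sets 5 fell and 1 was at -0.06 ± 0.14.

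Mesenchymal transcription factors changed in both directions, 5 of 20 risen and 6 fallen. Snai1 rose, as given above, and Foxc2 by 1.58 ± 0.10, whereas Prrx1, a factor of limb and skin mesenchyme, fell by 1.80 ± 0.16 from 11.24, 10.97 and 11.14 to 9.39, 9.32 and 9.25, Twist1 by 1.11 ± 0.14 and the cadherin gene Cdh2 by 1.86 ± 0.22. Snai2 at -0.30 ± 0.14, Zeb1 at -0.18 ± 0.10 and Zeb2 at -0.17 ± 0.32 did not pass. Among 33 regulators of skeleton and tendon 8 rose and 6 fell. Meox1 (1.73 ± 0.17), Runx1 (1.29 ± 0.21) and the tendon factor gene Scx (1.03 ± 0.21) were higher, and Osr1 (-2.01 ± 0.32), Eya1 (-1.84 ± 0.14) and Shox2 (-1.31 ± 0.27) lower. Sox9 at 0.18 ± 0.18 did not pass. The skeletal counts of risen and fallen genes were 8 and 3 without untreated array 3.

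Genes of the Wnt pathway changed in both directions. Rspo2 and Rspo3, secreted agonists, fell by 4.18 ± 0.31 and 2.25 ± 0.18, and Lgr4, a receptor for them, by 1.39 ± 0.12. The Frizzled genes Fzd1, Fzd2 and Fzd4 fell by 1.18 ± 0.17, 0.86 ± 0.15 and 1.17 ± 0.12 and the co-receptor gene Lrp6 by 1.11 ± 0.27. The ligand genes Wnt11, Wnt9a and Wnt5a rose, Wnt11 at 1.99 ± 0.23, Wnt9a at 1.33 ± 0.17 and Wnt5a at 0.67 ± 0.18. The target gene Axin2 at -0.19 ± 0.10 and Ctnnb1, β-catenin, at -0.10 ± 0.08 did not pass. In all 12 of 50 rose and 13 fell. With single arrays left out, 8 to 11 rose and 10 to 13 fell. Wnt5a lost its call without untreated array 1 (0.0502), limma adjusted p in brackets.

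Notch genes moved up in the ligand and the targets. Heyl went from 4.83, 4.30 and 4.49 to 7.02, 7.34 and 6.98 (2.57 ± 0.33) and Hey1 from 5.66, 5.66 and 5.74 to 7.65, 7.85 and 7.75 (2.07 ± 0.21), both repressors induced by Notch, and Hes1 rose by 1.00 ± 0.19, from 7.21, 8.03 and 7.69 over 9.13, 8.99 and 9.17 at 1 h to 8.47, 8.85 and 8.62. With Jag1, Notch1 at 0.79 ± 0.25 and Nrarp at 0.80 ± 0.19, 6 of 20 genes rose and 2 fell. The Notch counts of risen and fallen genes were 7 and 1 without untreated array 1 or 10 h array 3, 5 and 1 without untreated array 3 and 7 and 4 with embryo as a block. Notch1 lost its call without untreated array 3 (0.0729) or 10 h array 2 (0.118), limma adjusted p in brackets.

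Genes of the Hedgehog pathway, which patterns embryonic mesenchyme, fell more often than genes at large. Of the 12 tested genes 0 rose (0 at an unadjusted p under 0.05) and 7 fell. That is 58.3% fallen against 18.8% of all genes, with a median of -0.70. Whether signalling through the pathway changed was not tested. Gas1, a co-receptor, read 11.32, 11.24 and 12.01 in untreated and 8.43, 8.98 and 8.37 in treated cells, 7.61-fold lower (limma adjusted p = 4.6e-06). The co-receptor gene Cdon fell by 1.26 ± 0.19, the transducer gene Smo by 0.89 ± 0.14, the factor genes Gli2 and Gli3 by 1.07 ± 0.19 and 0.97 ± 0.18, and the receptor and target gene Ptch1 by 0.63 ± 0.22. Gli1 was too dim to be tested. Guidance cues also fell more often than they rose, 17 against 8 of 48. These were 35.4% and 16.7%, against 18.8% and 14.9% of all genes. Lrrn3 fell by at least 2.70. Sema3a (-1.47 ± 0.12) and Unc5c (-1.67 ± 0.18) were lower, and Sema7a, a membrane-anchored semaphorin, rose from 5.93, 6.44 and 6.40 to 9.47, 10.01 and 9.13 (3.28 ± 0.21). Ptch1 lost its call without untreated array 1 (0.0676), untreated array 3 (0.158), 10 h array 1 (0.0924) or 10 h array 3 (0.124), limma adjusted p in brackets. Ptch1 (0.0639) did not pass with the mean of all probe sets of a gene (limma adjusted p in brackets).

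In the retinoid pathway some genes of synthesis rose while a receptor gene fell. Beside Aldh1a3, Aldh1a2 rose by 1.52 ± 0.24 and Rdh10, which makes the aldehyde precursor, by 0.56 ± 0.12. Rarb, a retinoic acid receptor and itself a target of retinoic acid, read 6.32, 6.71 and 6.78 in untreated and 3.79, 3.93 and 4.17 in treated cells (lower by at least 2.38, limma adjusted p = 9.3e-10), and Dhrs3, which reduces the aldehyde back to retinol, fell by 1.93 ± 0.25. The retinoic acid hydroxylase genes Cyp26a1 at 0.15 ± 0.14 and Cyp26b1 at 0.29 ± 0.12 did not pass. Of 23 genes 3 rose and 6 fell. These were 13.0% and 26.1%, against 14.9% and 18.8% of all genes. Retinoic acid itself was not measured.

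Clock genes were displaced in both directions. In the loop that keeps time, Arntl, the gene of BMAL1, read 7.24, 7.51 and 7.37 in untreated, 7.63, 7.98 and 7.52 at 1 h and 9.42, 9.61 and 9.59 at 10 h (2.16 ± 0.12, limma adjusted p = 8.0e-09), Cry1 rose by 1.51 ± 0.13 and Clock by 0.44 ± 0.10. The repressors of Arntl, Nr1d1 and Nr1d2, fell by 0.57 ± 0.17 and 1.48 ± 0.11, and Per3 by 1.35 ± 0.13. Per1 at -0.22 ± 0.17 and Per2 at -0.29 ± 0.21 did not pass. Of the output genes, Dbp and its relative Tef (-1.03 ± 0.10) fell and Nfil3, which opposes them at the same sites, rose by 1.68 ± 0.12. The count over both groups was 4 and 3 risen and 4 and 5 fallen of 15 and 12. A clock phase that moves with the hours in culture cannot be told apart from TGF-β1 in this comparison. In the 250 bases before the start, the E-box CACGTG was found in 2 of 13 core clock genes with a promoter in the table (6.05% of all promoters), TTANGTAA, the D-box, in 1 (2.11%) and TAGGTCA, a ROR and REV-ERB site, in 0 (2.27%). Nr1d1 lost its call without untreated array 1 (0.0603), untreated array 2 (0.0538) or 10 h array 2 (0.0639), limma adjusted p in brackets. Clock (0.302) did not pass with the mean of all probe sets of a gene (limma adjusted p in brackets).

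**Figure D4:**
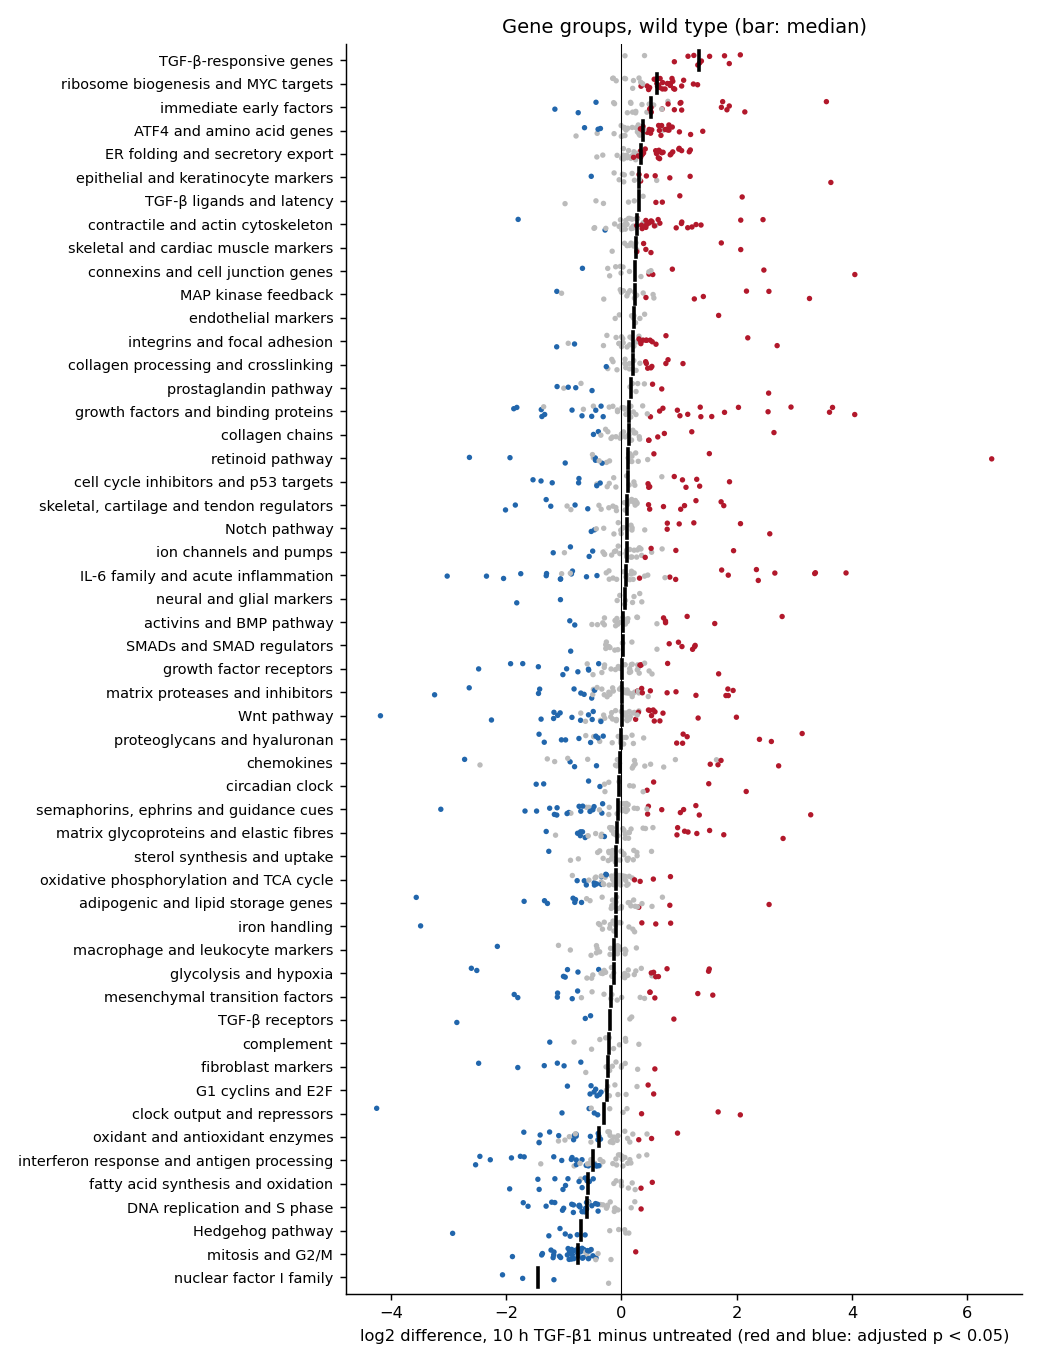
Difference between 10 h of TGF-β1 and untreated wild-type cells (log2) for the tested members of each gene group, one point per gene, coloured where the gene passed, with the median of the group as a bar. Mitosis and G2/M, with a median of -0.75, and DNA replication, at -0.59, lie to the left, and ribosome biogenesis, at 0.62, and the TGF-β-responsive genes, at 1.34, to the right.

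Genes of cell division were lower almost throughout. Of 43 mitosis and G2/M genes 1 rose, 36 fell and 6 did not pass, 83.7% fallen against 18.8% of all genes, with a median of -0.75. Nusap1, a spindle protein gene, went from 8.32, 7.90 and 8.31 to 7.20, 5.10 and 6.56 (-1.89 ± 0.40), Mki67, the proliferation marker, from 9.80, 9.60 and 9.67 to 8.61, 8.04 and 8.26 (-1.38 ± 0.21) and Ccnb2, cyclin B2, from 9.52, 9.50 and 9.63 to 8.63, 8.43 and 8.05 (-1.19 ± 0.24). The groups stayed apart in all 3, as in most genes that passed. Top2a fell by 1.17 ± 0.23 and Cdk1 by 0.57 ± 0.17, while Plk1 at -0.52 ± 0.21 did not pass. Of 38 DNA replication genes 1 rose and 24 fell, with a median of -0.59. The primase gene Prim1 fell by 1.70 ± 0.39, thymidine kinase (Tk1) by 1.31 ± 0.25 and the helicase gene Mcm5 by 0.83 ± 0.18, and Pcna at -0.24 ± 0.14 did not pass. The mitosis counts of risen and fallen genes were 1 and 27 without untreated array 1 and 0 and 35 without untreated array 2. They were 0 and 28 without untreated array 3, 0 and 32 without 10 h array 2 and 1 and 29 without 10 h array 3. The replication counts of risen and fallen genes were 0 and 24 without untreated array 1, untreated array 2, untreated array 3 or 10 h array 1, 0 and 26 without 10 h array 3 and 2 and 27 with embryo as a block. Cdk1 lost its call without untreated array 1 (0.0536), untreated array 3 (0.0528), 10 h array 2 (0.0825) or 10 h array 3 (0.0577), limma adjusted p in brackets. Pcna (0.0348) and Plk1 (0.0183) passed with embryo as a block (limma adjusted p in brackets).

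The regulators above them changed less uniformly. Cyclin D1 (Ccnd1) fell by 0.54 ± 0.17 and the retinoblastoma relative Rbl2 by 0.94 ± 0.21, and 8 of 17 G1 and E2F genes fell and 2 rose. The inhibitor gene Cdkn2b, a known TGF-β target, rose by 0.47 ± 0.15, from 9.61, 10.14 and 10.09 to 10.31, 10.39 and 10.57, whereas Cdkn1a was at 0.23 ± 0.09 and Cdkn1b fell by 0.74 ± 0.21. The growth arrest genes Gadd45a and Gadd45b rose by 1.12 ± 0.20 and 1.36 ± 0.22, and Plk3 by 1.87 ± 0.18. Of 26 inhibitors and p53 targets 9 rose and 7 fell. The G1 and E2F counts of risen and fallen genes were 1 and 4 without untreated array 1, untreated array 2 or 10 h array 2, 1 and 3 without untreated array 3 and 2 and 4 without 10 h array 1 or 10 h array 3. Ccnd1 lost its call without untreated array 2 (0.0568), untreated array 3 (0.096), 10 h array 1 (0.0647) or 10 h array 3 (0.0846), limma adjusted p in brackets. Cdkn1b lost its call without untreated array 1 (0.0607). Cdkn2b lost its call without untreated array 1 (0.121) or 10 h array 3 (0.0789). Cdkn2b (0.0719) did not pass in a fit of the 6 arrays alone (limma adjusted p in brackets). Cdkn1a (0.0392) passed with embryo as a block (limma adjusted p in brackets).

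The promoter of Ccnb2 is shown for the CCAAT box and the cell cycle homology region (CHR), TTTGAA, elements of many G2/M promoters, both read on either strand. A CCAAT was present in 26 of 37 members with a promoter in the table, 70.3% against 34.5% of all promoters, and a CHR in 13, 35.1% against 16.3%. Of the 26 members 22 fell and 1 rose, and the medians with and without a CCAAT were -0.75 and -0.71. The E2F site TTTNGCGC was present in 5 of 32 replication genes, 15.6% against 1.15%. Of these 5 genes 3 fell and 1 rose, and the medians with and without the site were -0.83 and -0.58. In the printed sequence the 3 CCAAT matches and the CHR match are in capitals (GRCm38.p6, chr9:70421555-70421804, minus strand).
Ccnb2: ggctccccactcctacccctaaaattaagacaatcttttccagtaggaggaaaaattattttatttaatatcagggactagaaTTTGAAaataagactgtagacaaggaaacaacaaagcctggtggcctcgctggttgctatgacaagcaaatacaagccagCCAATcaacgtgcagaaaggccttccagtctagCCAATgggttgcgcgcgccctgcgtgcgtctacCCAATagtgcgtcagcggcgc

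While division genes fell, genes for making proteins rose. Of 38 ribosome biogenesis genes and MYC targets 27 rose and 0 fell (0 at an unadjusted p under 0.05), 71.1% against 14.9% of all genes, with a median of 0.62. The processing factor gene Rrp12 went from 5.62, 6.06 and 5.88 to 6.90, 7.21 and 7.41 (1.32 ± 0.16), spermidine synthase (Srm) from 10.28, 10.59 and 10.38 to 11.51, 11.89 and 11.59 (1.25 ± 0.11), and Nop16 rose by 0.89 ± 0.11. The nucleolar genes Ncl at 0.07 ± 0.12 and Npm1 at -0.14 ± 0.10 did not pass. The E-box CACGTG, which MYC binds, was present in 2 of 31 members with a promoter in the table, 6.45% against 6.05% of all promoters.

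Genes of the secretory pathway rose with them, 25 of 43 and 0 fallen (0 at an unadjusted p under 0.05), 58.1% against 14.9%. Creld2, an endoplasmic reticulum protein gene, went from 8.38, 8.73 and 8.77 to 9.61, 9.98 and 9.89 (1.20 ± 0.12) and Creb3l2, a factor for secretory genes, from 9.93, 9.60 and 9.84 to 10.99, 11.08 and 10.84 (1.18 ± 0.18). The chaperone gene Hspa5 (BiP) rose by 0.85 ± 0.08, Xbp1 by 0.68 ± 0.10, Manf by 1.00 ± 0.08 and the coat genes Sec23b and Sec24d by 1.04 ± 0.12 and 0.61 ± 0.15. Calr at 0.16 ± 0.10 and Hsp90b1 at -0.07 ± 0.12 did not pass. Creld2 is printed for its endoplasmic reticulum stress element (ERSE), which is CCAAT, any 9 bases and CCACG on either strand, found in 7 of 35 members with a promoter in the table, 20.0% against 0.122% of all promoters. The 7 were Calr, Canx, Creld2, Dnajc3, Hsp90b1, Hspa5 and Pdia6, of which 4 rose. The medians with and without the element were 0.36 and 0.35. Every such match holds a CCAAT box. The match is in capitals (GRCm38.p6, chr15:88819396-88819645, plus strand). The secretory counts of risen and fallen genes were 18 and 0 without untreated array 1 and 21 and 1 without 10 h array 3. Pdia6 lost its call without untreated array 1 (0.0698) or 10 h array 3 (0.0505), limma adjusted p in brackets. Pdia6 (0.185) did not pass with the mean of all probe sets of a gene (limma adjusted p in brackets). Pdia6 (0.0852) did not pass in a fit of the 6 arrays alone (limma adjusted p in brackets).
Creld2: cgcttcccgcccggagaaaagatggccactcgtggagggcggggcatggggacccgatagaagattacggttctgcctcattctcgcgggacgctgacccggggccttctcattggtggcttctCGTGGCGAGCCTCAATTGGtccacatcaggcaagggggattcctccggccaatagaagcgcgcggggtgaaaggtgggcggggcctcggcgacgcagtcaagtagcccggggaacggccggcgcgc

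Amino acid genes rose too. Of 45 ATF4-linked and amino acid genes, transfer RNA synthetases included, 22 rose, 3 fell and 20 did not pass, with a median of 0.37. The risen share was 48.9% against 14.9% of all genes, and the fallen share 6.67% against 18.8%. Cth, which makes cysteine, went from 8.21, 8.62 and 8.43 to 10.03, 9.35 and 10.10 (1.41 ± 0.17), the glutathione-degrading Chac1 rose by 1.20 ± 0.23, the serine enzyme genes Psph and Shmt2 by 0.82 ± 0.10 and 0.81 ± 0.15, the arginine transporter gene Slc7a1 by 0.82 ± 0.08, and Atf4, the factor behind many of them, by 0.48 ± 0.08. Ddit3 at 0.08 ± 0.21 and Trib3 at 0.00 ± 0.13, also known as ATF4 targets, did not pass. Fgf21, given above among the largest rises, is a known target of ATF4, and its promoter is printed for the amino acid response element TGATGNAAT, in capitals, (GRCm38.p6, chr7:45615491-45615740, minus strand). The element was present in 3 of 36 members of the amino acid group, 8.33% against 0.825% of all promoters.
Fgf21: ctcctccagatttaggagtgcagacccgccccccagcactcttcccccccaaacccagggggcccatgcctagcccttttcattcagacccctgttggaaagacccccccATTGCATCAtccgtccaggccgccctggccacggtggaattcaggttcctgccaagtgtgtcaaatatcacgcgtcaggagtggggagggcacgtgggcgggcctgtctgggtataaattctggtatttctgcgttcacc

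Fatty acid genes fell more often than they rose. Of 24 fatty acid synthesis and oxidation genes 2 rose and 13 fell, with a median of -0.58. These were 8.33% and 54.2%, against 14.9% and 18.8% of all genes. Acadm, the medium-chain dehydrogenase of fatty acid oxidation, went from 10.04, 9.90 and 10.01 to 8.64, 7.15 and 8.34 (-1.94 ± 0.25), the transport gene Cpt1a fell by 0.93 ± 0.20, Pdk4 by 1.43 ± 0.34 and the acetate-activating gene Acss2 by 1.45 ± 0.20. Fasn at 0.24 ± 0.19 and Acaca at 0.00 ± 0.16 did not pass. Of 33 adipogenic and lipid storage genes 3 rose and 8 fell. Pparg, the regulator of fat cells, fell by 0.80 ± 0.21, and the lipase gene Mgll rose by 2.56 ± 0.22. Sterol genes had the lowest share of called members among the 53 groups, 0 risen (0 at an unadjusted p under 0.05) and 1 fallen of 28 or 3.57%, with Hmgcs1 at -0.11 ± 0.21 and Sqle at 0.21 ± 0.21. The mean level of the sterol group ranged from 8.73 to 9.17 among untreated and from 8.56 to 9.10 among treated arrays. The fatty acid counts of risen and fallen genes were 1 and 13 without untreated array 1, 1 and 11 without untreated array 3, 1 and 9 without 10 h array 2 and 1 and 14 without 10 h array 3. The adipogenic counts of risen and fallen genes were 1 and 5 without untreated array 1, 1 and 6 without 10 h array 2 and 5 and 10 with embryo as a block. The sterol counts of risen and fallen genes were 0 and 3 without 10 h array 1 or 10 h array 3 and 1 and 4 with embryo as a block.

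Among glycolysis and hypoxia genes 7 of 37 rose and 7 fell. The entry steps rose, the glucose transporter gene Slc2a1 by 1.51 ± 0.18 and hexokinase 2 (Hk2) by 1.52 ± 0.23, from 8.01, 8.67 and 7.82 to 9.60, 9.49 and 9.97, while Ldha at 0.03 ± 0.15 and Gapdh at 0.05 ± 0.15 did not pass. Adm, adrenomedullin, a hypoxia-responsive peptide gene, fell by 2.60 ± 0.16 and Ppp1r3c, which directs a phosphatase to glycogen, by 2.51 ± 0.21. Of 52 oxidative phosphorylation and citrate cycle genes 4 rose and 10 fell, 26.9%, below the background, with Idh3a at 0.85 ± 0.18 and Idh2 at -0.64 ± 0.13. The glycolysis counts of risen and fallen genes were 5 and 11 without 10 h array 3. The oxidative phosphorylation counts of risen and fallen genes were 2 and 8 without untreated array 1, 2 and 7 without untreated array 2 or untreated array 3 and 2 and 11 without 10 h array 3.

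Antioxidant genes fell more often than genes at large, and the iron genes showed a single large change. Of 37 oxidant and antioxidant enzymes 3 rose and 14 fell. The fallen share was 37.8% against 18.8% of all genes, and the median was -0.39. Nox4, the oxidase known as a TGF-β target, rose by 0.97 ± 0.15, from 7.32, 7.24 and 7.27 to 8.35, 8.16 and 8.24. The glutathione transferases Mgst1 and Gsta4 fell by 1.69 ± 0.20 and 1.25 ± 0.24 and glutathione reductase (Gsr) by 0.82 ± 0.10. Slc40a1, ferroportin, the only known iron exporter, read 8.65, 8.97 and 8.61 in untreated and 5.03, 5.14 and 5.61 in treated cells, 11.2-fold lower (limma adjusted p = 4.4e-09). The importer gene Slc39a14 rose by 0.85 ± 0.13, and the transferrin receptor gene Tfrc at -0.10 ± 0.32 and ferritin heavy chain (Fth1) at -0.15 ± 0.25 did not pass. Of 19 iron genes 3 rose and 1 fell. The iron counts of risen and fallen genes were 1 and 1 without untreated array 1 or 10 h array 2, 2 and 2 without untreated array 3 and 3 and 3 without 10 h array 1 or with embryo as a block.

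A few genes better known from epithelium or muscle rose in these fibroblasts. Lce1f, a gene of the cornified envelope of skin, went from 3.67, 3.81 and 3.61 to 7.59, 7.22 and 7.17 (higher by at least 3.14), the desmosome gene Pkp1 from 6.28, 6.27 and 6.17 to 8.82, 9.12 and 8.19 (2.47 ± 0.22) and keratin 18 (Krt18) rose by 1.19 ± 0.27, while Epcam at -0.04 ± 0.13 and Krt8 at 0.18 ± 0.09 did not pass. Of 17 epithelial markers 7 rose (41.2% against 14.9% of all genes) and 1 fell (5.88% against 18.8%). Their mean level was 4.88 to 5.06 in untreated and 5.37 to 5.65 in treated arrays. Cardiac troponin T (Tnnt2) rose by 1.73 ± 0.29, and 6 of 14 muscle markers rose (42.9%) and 0 fell (0 at an unadjusted p under 0.05). Of 16 connexin and junction genes 5 rose (31.2%) and 1 fell (6.25%), and Gja1, the main connexin of fibroblasts, was at -0.20 ± 0.17. Of 32 channels and pumps 4 rose and 4 fell, the potassium channel gene Kcnk1 at 1.95 ± 0.25 and the calcium channel gene Cacna1h by at least 1.02, and of 10 neural markers 0 rose (2 at an unadjusted p under 0.05) and 2 fell, Map2 by at least 1.38. The epithelial counts of risen and fallen genes were 5 and 0 without untreated array 3, 7 and 0 without 10 h array 1, 4 and 1 without 10 h array 2 and 6 and 0 without 10 h array 3. The muscle counts of risen and fallen genes were 2 and 0 without untreated array 1, untreated array 2 or 10 h array 2 and 3 and 0 without untreated array 3 or 10 h array 1. The junction counts of risen and fallen genes were 3 and 1 without 10 h array 2, 4 and 2 without 10 h array 3 and 8 and 1 with embryo as a block. The neural counts of risen and fallen genes were 0 and 1 without untreated array 1, untreated array 3, 10 h array 2 or 10 h array 3, 1 and 2 without untreated array 2 and 2 and 2 with embryo as a block.

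Some of the strongest changes lay outside these groups. Among the 15 largest rises were Tfpi2, a protease inhibitor gene, from 4.34, 4.98 and 4.42 to 7.78, 7.11 and 8.47, and Olfm2, from 3.79, 3.59 and 3.97 to 6.56, 7.60 and 6.57. Among the 15 largest falls were Rtl3 (-3.17 ± 0.38), the ubiquitin ligase subunit gene Fbxl7 (-2.92 ± 0.17), the angiotensin receptor gene Agtr2 (-2.78 ± 0.29), the cytochrome gene Cyp1b1 (-2.72 ± 0.43) and Casp12 (-2.66 ± 0.19).

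The same treatment in cells labelled NFI-C knock-out gave a comparison that shares no array with this one. Nfic itself does not check that label here: its brightest probe set read 10.36 to 10.51 in untreated wild-type arrays and 9.89 to 10.72 in untreated labelled knock-out arrays, and the sources used here do not say whether its probes lie in the deleted part. The response there was much alike in direction: all 833 genes that changed at least 2-fold in wild type had the same sign, 787 of them passed there too (34.7% of all genes did), and across the 13679 genes, which are not independent replicates, Pearson's r of the differences was 0.936 and Spearman's rank correlation 0.889. Of the 4614 genes that passed in wild type 3690 passed in the same direction. Tested gene by gene, the 10 h change of wild type minus that of labelled knock-out called 0 genes in limma, with 305 at an unadjusted p under 0.05. Its 95% interval stayed inside a 2-fold range in 92.9% of genes. Dbp fell by 4.61 ± 0.10 in labelled knock-out, with a difference of 0.37 ± 0.14 (limma adjusted p = 0.999), and Pdgfra by 2.57 ± 0.29, with a difference of 0.09 ± 0.41 (limma adjusted p = 0.999). Nothing described above can therefore be called particular to the wild-type cells, and the intervals leave room for differences in single genes.

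**Figure D5:**
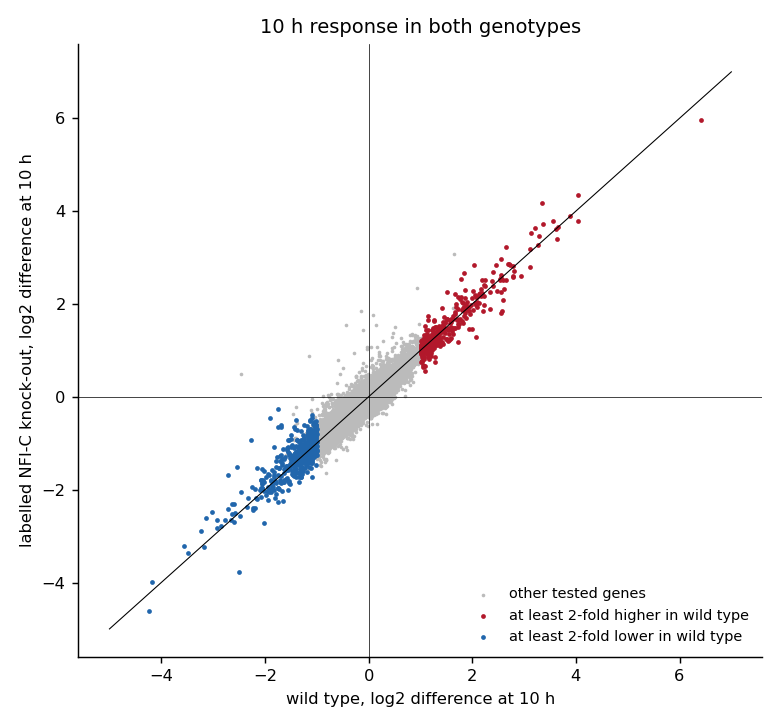
Difference between 10 h of TGF-β1 and untreated cells (log2) in wild type (horizontal axis) and in cells labelled NFI-C knock-out (vertical axis) for the 13679 tested genes, with the genes changed at least 2-fold in wild type in colour. These lie along the diagonal, and all 833 fall in the quadrants of equal sign.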

How the data were processed

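Total RNA of 18 cultures was read on Affymetrix mouse arrays. The authors deposited log2 values per probe set, and the submitters' processing notes name RMA as their source, with the version not given in the sources used here. No array intensity files were used. Of 45101 probe sets 34958 carry 1 gene symbol, 932 several and 9211 none in the platform annotation, and 34754 of the first were updated through RefSeq. The 18194 genes left, each read by its brightest probe set over the 18 arrays, were filtered at the 40th percentile, which left 13679. Group means of all 6 groups were fitted with limma 3.58.1 in R 4.3.3 (12 residual degrees of freedom), and the procedure was tested on simulated data. Embryo numbers follow the labels. Promoters came from the RefSeq table of GRCm38.p6. The contrast, the 53 gene lists (1638 genes, of which 1402 could be tested) and the searched elements were chosen with earlier results of these data known. Named were the 15 largest rises and falls past the threshold without overlap of the groups, members of the lists, first those with large changes past the threshold, and defining members whatever their test. Alternatives changed the samples in the fit, the pairing, the filter, the probe set rule, the normalization and the variance model. Some genes are not reported here.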

Additional observations from a re-analysis of the deposited data

How the results depend on the processing

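The number of genes past the threshold was 4614, and 3289 with only the 6 arrays of the comparison (3214 of them shared), 5492 with embryo as a replicate block (4563 shared), 4588 without a filter on dim genes, 4289 with the filter at the 60th percentile, 4368 with the mean of all probe sets of a gene and 4553 to 4632 under other normalizations and variance models. Leaving out each of the 6 arrays in turn gave 3662 to 4428 genes, 296 to 330 at least 2-fold higher and 456 to 600 at least 2-fold lower. The pairing with embryo as a block gave 314 and 551 such genes, and the mean of all probe sets 254 and 333 against 310 and 523 with the brightest one; the cause was not tested. The test of the difference between the genotypes called 0 genes with limma in each setting run. Of the 262 named genes past the threshold 238 passed in each alternative in which they were tested, and 245 with each single array left out. Some named genes were not tested with the 60th percentile filter or with the mean of all probe sets. No named gene changed direction under a call. The calls lost with an array left out, with the mean of the probe sets or with the 6 arrays alone are given beside the genes. Counts of a gene group in such fits are given mainly where they moved by a large factor. Groups without such a line moved less but were not all fixed. Mrc1 was also lost without the filter and with trend and robust, and Ptch1 with a further quantile normalization. The block lost no named call, and the calls that it added are given beside the genes. Array number and signal near the top of the scale limit what can be seen.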

Other observations

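Genes outside the gene groups described above were also among the 30 largest changes in each direction; these were picked after their values were seen. Foxs1, a forkhead transcription factor gene, rose by 3.12 ± 0.20, from 5.89, 5.89 and 6.04 to 9.16, 9.51 and 8.50. Sphk1, a sphingosine kinase gene, rose by 2.78 ± 0.16, from 6.51, 7.17 and 6.59 to 9.29, 9.77 and 9.56, and Abcb1a, the gene of a drug efflux pump, by at least 2.13, from 3.90, 3.65 and 3.63 to 6.22, 6.41 and 6.32. That the groups do not overlap was a condition of the choice of all genes in this paragraph. Cavin2, a gene of the coat of caveolae, fell by 2.59 ± 0.24, from 10.89, 10.82 and 11.05 to 8.01, 8.92 and 8.07, and Serpinb9, an inhibitor of granzyme B, by 2.32 ± 0.36, from 9.51, 8.91 and 9.06 to 7.65, 5.84 and 7.02. The GTPase gene Diras2 fell by 2.22 ± 0.21, from 6.33, 6.74 and 6.15 to 3.96, 4.45 and 4.14. Of its 10 h values, 3.96 and 4.14 lay under the 40th percentile of the arrays (4.16 to 4.25), so the size of its fall is uncertain. Each of the 6 passed with limma also when any single array of the comparison was left out.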
